A study of Mus musculus with 5 samples.

Results

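Neutrophils store their antimicrobial proteins in granules that are built one after another as the cell matures. The primary (azurophil) granule proteins are transcribed in promyelocytes. Those of secondary granules follow in myelocytes and those of tertiary (gelatinase) granules later still. Transcripts of the primary proteins fade once their stage has passed, so a mature neutrophil carries the proteins with little of the mRNA. The 10 genes described here were chosen by symbol, and all 11 of their probe sets were used. They were taken from 18193 genes that the platform annotation names without ambiguity. The primary genes are Mpo, Elane, Prtn3 and Ctsg. The later genes are Ltf, Camp, Ngp, Mmp8, Mmp9 and Cd177. The list was drawn up with the signals of these same arrays known, so its values are a description and carry no test. Only transcripts were measured, not granule proteins.

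By their labels, the 5 Affymetrix whole-genome mouse arrays of the series hold bone marrow cells enriched with magnetic beads for B220, a form of CD45 on developing B cells. KA/KA mice (3 arrays) are homozygous for a knock-in of the kinase-dead allele K44A of IKKα, which acts in NF-κB signalling. WT littermates (2 arrays) carry the normal gene. All mice were FVB and 4 weeks old, and none was treated. The comparison asks which transcripts depend on IKKα kinase activity in early B-cell development. The knock-in is not limited to B cells by the labels. The number of mice behind each array is not given in the sources used here, so spreads are between arrays.

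Arrays are named by their labels, and B-lineage markers were abundant on 2 of the 5. Rag1, a recombinase gene of the B lineage, read 4.09 on KA/KA 2, 4.09 on KA/KA 3 and 4.10 on WT 2, against 12.80 on KA/KA 1 and 12.79 on WT 1. These values, like all levels below, are log2(signal + 16), where a signal of zero reads 4. The surfactant gene Sftpc ran the other way, with 15.00 on KA/KA 2, 14.99 on KA/KA 3 and 14.04 on WT 2, against 6.53 on KA/KA 1 and 5.97 on WT 1. All 7 B-lineage markers tested were lower on each of KA/KA 2, KA/KA 3 and WT 2 than on the other arrays, and all 6 lung epithelial markers tested were higher. Bacterial poly-A control signals split the arrays the same way, with medians of 46.9 to 249 on those 3 arrays and 11896 and 7305 on KA/KA 1 and WT 1. These 3 arrays are called lung-like and the pair marrow-like below. These sets are not groups of the study, and each holds arrays of both genotype labels. The lung-like arrays go against their labelled cell type and may not hold the labelled samples, so a KA/KA minus WT value among them compares arrays by label only.

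Transcription of granule genes in promyelocytes and myelocytes is known to draw on the factors PU.1, C/EBP and MYB. The promoters were therefore searched for letters of the kind these factors bind. RefSeq promoters (GRCm38.p6) of 9 of the 10 genes, all but Mmp9, were read on both strands over the 250 bases before the start. AGGAAGT, a core of the kind PU.1 binds, was found in 4 of 4 primary genes and in 1 later gene, Mmp8. TTGNNCAA is a palindrome with open middle bases (N) that includes sites of the kind C/EBP factors bind. It was found in 0 primary genes and in 3 later genes, Ltf, Ngp and Mmp8. CAACGG, of the kind MYB binds, was found in the neighbouring genes Elane and Prtn3 and in no other member. Of all 32851 promoters in the table, 7.69% hold AGGAAGT, 5.65% TTGNNCAA and 4.05% CAACGG. The motifs were chosen after these promoters had been read, so the counts are descriptions, and a match is not a binding site. Only these exact letters were searched, so a promoter without a match may still bind the factor. The windows of 100 bases below show the 4 primary genes around AGGAAGT and, for contrast, 2 later genes around TTGNNCAA. Capitals mark the searched motifs, and each window reads 5′ to 3′ on the strand of its gene.
Mpo, chr11:87793534-87793633, plus strand: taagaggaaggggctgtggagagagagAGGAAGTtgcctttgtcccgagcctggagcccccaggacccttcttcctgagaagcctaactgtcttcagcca
Elane, chr10:79886181-79886280, plus strand: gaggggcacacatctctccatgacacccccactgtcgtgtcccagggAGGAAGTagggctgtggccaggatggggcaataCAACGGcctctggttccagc
Prtn3, chr10:79879526-79879625, plus strand: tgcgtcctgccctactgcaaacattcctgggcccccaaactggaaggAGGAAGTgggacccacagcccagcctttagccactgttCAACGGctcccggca
Ctsg, chr14:56102725-56102824, minus strand: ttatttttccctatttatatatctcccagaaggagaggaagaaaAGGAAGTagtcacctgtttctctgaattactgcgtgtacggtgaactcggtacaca
Ltf, chr9:111019171-111019270, plus strand: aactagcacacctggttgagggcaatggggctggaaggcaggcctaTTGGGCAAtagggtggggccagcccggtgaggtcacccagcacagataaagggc
Ngp, chr9:110419624-110419723, plus strand: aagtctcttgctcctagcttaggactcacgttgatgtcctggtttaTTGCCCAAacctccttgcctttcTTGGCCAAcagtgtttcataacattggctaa
In Elane and Prtn3 the AGGAAGT match begins 84 and 94 bases before the start, and CAACGG begins 51 and 56 bases before it. In Mpo and Ctsg the AGGAAGT match lies farther out, from 223 and 206 bases before the start. Ngp holds TTGNNCAA 3 times, and 2 of these are inside the window shown.

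All 4 primary genes were far lower on the lung-like arrays than on the marrow-like pair. Elane lay close to zero signal there, as did Ctsg on KA/KA 2 and WT 2. Mpo encodes myeloperoxidase, which makes hypochlorous acid. It read 6.55 on KA/KA 2, 7.88 on KA/KA 3 and 7.16 on WT 2, against 13.30 on KA/KA 1 and 13.54 on WT 1. The sets did not overlap, and the lung-like mean less the marrow-like mean was -6.22 log2 units, a 74.8-fold difference on this scale. In such bulk samples, fewer neutrophils and less of a transcript in each cannot be told apart. Elane, neutrophil elastase, read 4.83 on KA/KA 2, 5.09 on KA/KA 3 and 5.08 on WT 2, against 11.20 on KA/KA 1 and 12.18 on WT 1. Its lung-like signals lay within 0.26 of each other and close to zero signal, so the difference of -6.69 depends on the constant added (-5.39 with 64 and -7.60 with 1).

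Prtn3 encodes proteinase 3, a serine protease related to elastase. It read 6.87 on KA/KA 2, 8.17 on KA/KA 3 and 6.98 on WT 2, against 12.25 on KA/KA 1 and 12.94 on WT 1, a difference of -5.25. Ctsg, cathepsin G, read 5.48 on KA/KA 2, 6.56 on KA/KA 3 and 4.40 on WT 2, against 11.19 on KA/KA 1 and 12.10 on WT 1, a difference of -6.17. KA/KA 3 was the highest lung-like array for all 4 primary genes, for Elane by 0.02 only. Their differences between the sets lay close together, between -6.69 and -5.25. Mast cells also express Ctsg, and the mast cell protease Mcpt4 read 4.22 on KA/KA 2, 4.27 on KA/KA 3 and 4.33 on WT 2, against 4.18 on KA/KA 1 and 5.56 on WT 1. Of 6 mast cell markers, 1 (Kit) passed the filter on dim probe sets. The summed signal of the 6 markers was 1597 to 4932 on lung-like arrays and 1015 and 1040 on KA/KA 1 and WT 1, most of it Kit. Without Kit the sum was 188, 176 and 307 on KA/KA 2, KA/KA 3 and WT 2, and 287 and 432 on KA/KA 1 and WT 1. Cpa3 (-1.50), Ms4a2 (-0.82) and Mcpt4 (-0.60) were lower on the lung-like arrays in the mean, as Ctsg was, and Tpsb2 (0.83) and Cma1 (0.23) were higher. The part of mast cells in the Ctsg signal was not tested.

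**Figure D1:**
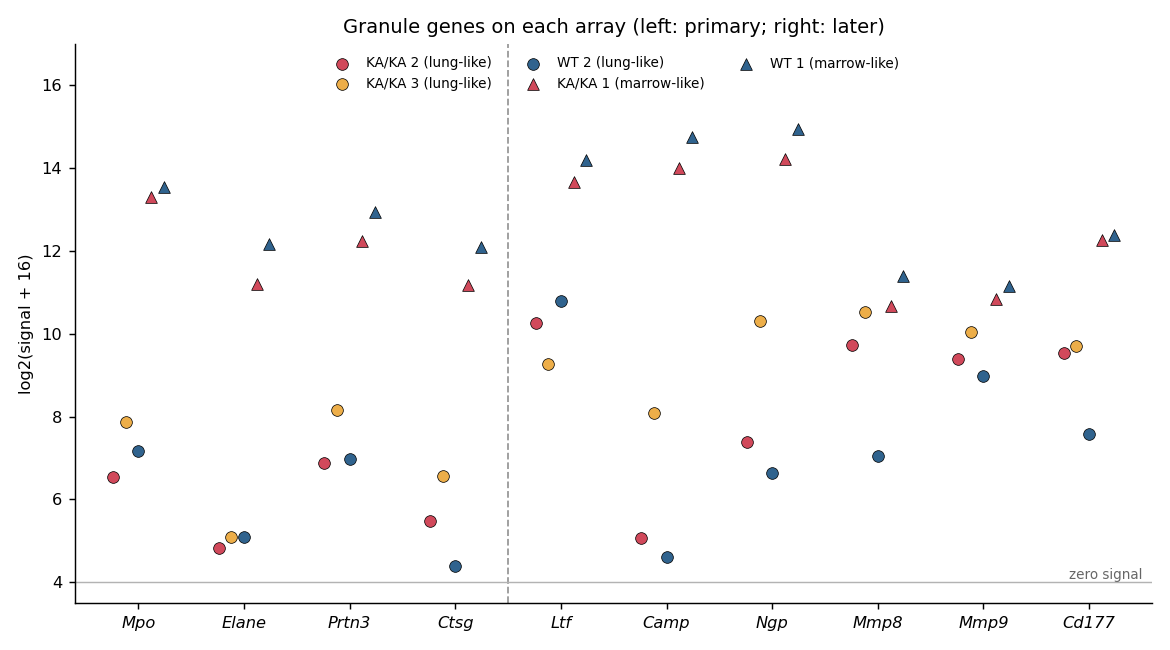
Levels of the 10 granule genes, as log2(signal + 16), with 1 point for each array. Circles are lung-like arrays and triangles the marrow-like pair, and the dashed line divides primary from later genes. For every gene the triangles lie above the circles, with gaps over 4 log2 units for the primary genes and of 0.13 for Mmp8.

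The later genes spread much more widely, and the secondary granule genes Ltf, Camp and Ngp did not lie together. Camp, the precursor of the cathelicidin antimicrobial peptide, read 5.07 on KA/KA 2, 8.09 on KA/KA 3 and 4.61 on WT 2, against 14.00 on KA/KA 1 and 14.75 on WT 1. Its difference of -8.45 was the largest of any member, primary genes included. Ngp, neutrophilic granule protein, read 7.38 on KA/KA 2, 10.32 on KA/KA 3 and 6.64 on WT 2, against 14.23 on KA/KA 1 and 14.95 on WT 1, a difference of -6.48. Camp and Ngp thus lay as low on the lung-like arrays, relative to the pair, as the primary genes did. The KA/KA 3 array stood apart for both, by 3.02 for Camp and 2.94 for Ngp above KA/KA 2.

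Ltf encodes lactoferrin, an iron-binding protein that glandular epithelia also make. It read 10.25 on KA/KA 2, 9.27 on KA/KA 3 and 10.80 on WT 2, against 13.66 on KA/KA 1 and 14.20 on WT 1, a difference of -3.82. Among the lung-like arrays it had an order of its own, highest on WT 2 and lowest on KA/KA 3. It was the only member for which KA/KA 3 was the lowest of the 3. The lung epithelial markers stood at summed signals of 91441 to 140763 on these arrays, against 310 and 231 on KA/KA 1 and WT 1. Their part in the Ltf signal was not tested. Cd177, a surface and granule glycoprotein of neutrophils, read 9.54 on KA/KA 2, 9.71 on KA/KA 3 and 7.57 on WT 2, against 12.27 on KA/KA 1 and 12.39 on WT 1, a difference of -3.39.

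The metalloproteinases had the smallest differences between the sets among the 10 members. Mmp8, neutrophil collagenase, read 9.72 on KA/KA 2, 10.53 on KA/KA 3 and 7.04 on WT 2, against 10.66 on KA/KA 1 and 11.40 on WT 1. The difference was -1.93, but KA/KA 3 lay only 0.13 under KA/KA 1, and WT 2 alone was far below. Mmp9, gelatinase B of tertiary granules, is also made by macrophages. Its brighter probe set read 9.40 on KA/KA 2, 10.04 on KA/KA 3 and 8.99 on WT 2, against 10.85 on KA/KA 1 and 11.16 on WT 1, a difference of -1.53. Its second probe set read 7.41 on KA/KA 2, 8.24 on KA/KA 3 and 7.01 on WT 2, against 10.27 on KA/KA 1 and 10.94 on WT 1, a difference of -3.05. The probe sets gave the same order of arrays and sizes 1.52 log2 units apart. Of 8 monocyte and macrophage markers tested, 2 were lower by over 1 log2 unit on the lung-like arrays (Ccr2 -1.93 and Marco -1.15) and 0 higher. Their median was -0.37, with summed signals of 14428 to 55239 on lung-like arrays, against 31537 and 23721 on KA/KA 1 and WT 1.

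Over all members, 10 of 10 lay below both marrow-like arrays on every lung-like array, where 30.5% of the 11392 genes tested did so. All 10 were lower by over 1 log2 unit, where 14.2% of genes were, and 6 of 10 were lower by over 5, where 0.158% were. These are shares in the comparison used to draw up the list, so nothing is read from them. The median difference was -3.61 for the later and -6.19 for the primary genes, and 0.05 over all genes. The medians of the stages thus differed by 2.59 log2 units. The ranges overlapped, since later genes ran from -8.45 to -1.53 and primary genes from -6.69 to -5.25. Without 1 array at a time the gap between the stages was 2.24 to 3.04.

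**Figure D2:**
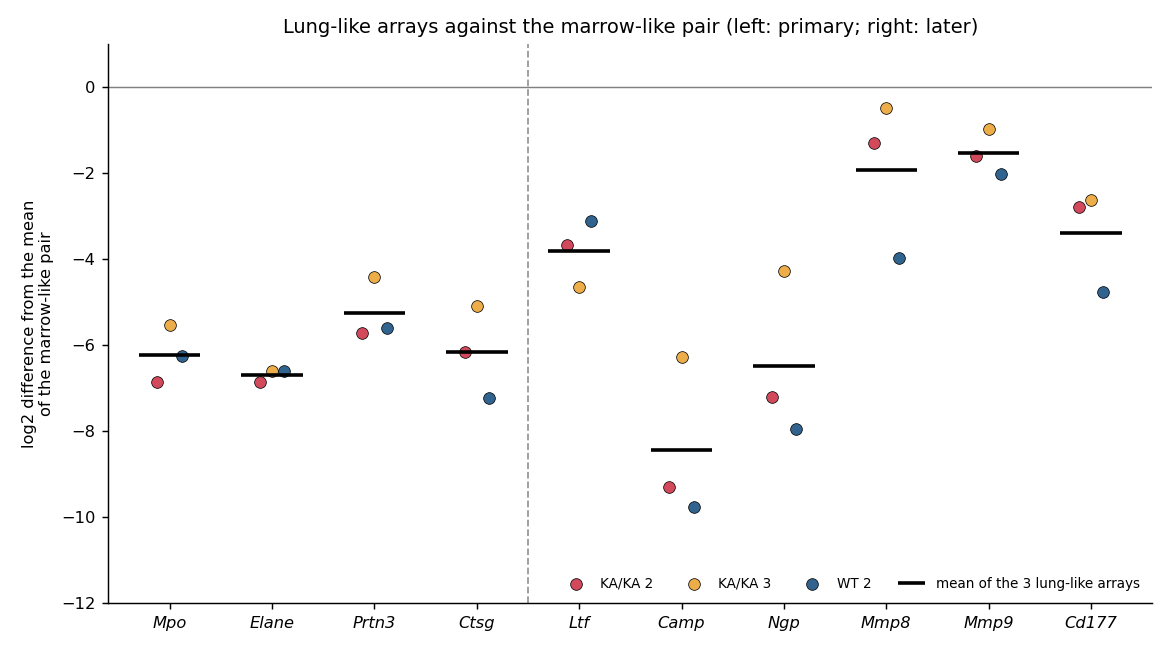
Each lung-like array minus the mean of the marrow-like pair, in log2 units, for the 10 genes. Points are single arrays and black lines the mean of the 3. Primary genes lie together between -6.69 and -5.25 in the mean, while later genes spread from -8.45 (Camp) to -1.53 (Mmp9).

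Inside the lung-like set, later genes were mostly higher on the KA/KA arrays than on the WT array, and primary genes were mixed. Differences are given for KA/KA 2 first and KA/KA 3 second, each minus WT 2. The 2 differences share the WT 2 array, so they are not independent, and with 1 WT array there is no test. Mmp8 differed by 2.69 and 3.49, and Cd177 by 1.97 and 2.15, so these genes were similar on both KA/KA arrays. Camp differed by 0.47 and 3.48, and Ngp by 0.74 and 3.69. For these secondary granule genes the KA/KA arrays were farther from each other than KA/KA 2 was from WT 2. Mmp9 differed by 0.41 and 1.04. Ltf was lower on both KA/KA arrays, by differences of -0.55 and -1.53.

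Of the primary genes, Ctsg differed by 1.08 and 2.16, from a WT 2 level of 4.40 that is close to zero signal. Prtn3 differed by -0.11 and 1.19, Mpo by -0.60 and 0.72, and Elane by -0.25 and 0.02. Mpo and Prtn3 thus had opposite signs on the KA/KA arrays, and Elane was nearly flat. The median was 0.61 and 2.81 for the later genes, and -0.18 and 0.95 for the primary genes, with all genes at -0.04 and -0.01. On KA/KA 2, 3 of 10 members were higher than on WT 2 by over 1 log2 unit, where 8.13% of all genes were, and on KA/KA 3, 7 of 10 were, where 5.92% of all genes were. Both KA/KA arrays lay above WT 2 for 6 of 10 members, where 33.4% of all genes did. By over 1 log2 unit on both arrays this held for 3 of 10 (Mmp8, Cd177 and Ctsg), where 3.83% of genes did. The inside-set contrast is also one the list was drawn up on, and nothing is read from these shares.

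Markers of other cells differed between the same arrays. All 4 neutrophil markers with a probe set (S100a8, S100a9, Csf3r and Cxcr2) were higher on both KA/KA arrays than on WT 2. Their summed signal was 31409 and 70063 on KA/KA 2 and KA/KA 3, against 4265 on WT 2. All 8 monocyte and macrophage markers tested were higher as well, with summed signals of 55239 and 34845 on KA/KA 2 and KA/KA 3, against 14428 on WT 2. Eosinophil markers were higher for 4 of 4, at 1050 and 1255 on KA/KA 2 and KA/KA 3, against 572 on WT 2. Erythroid markers summed to 1857 and 1218 on KA/KA 2 and KA/KA 3, against 3315 on WT 2, most of it Alas2. They did not move together. Alas2 differed by -0.86 and -1.53 on KA/KA 2 and KA/KA 3, and Klf1 by 0.81 and 0.68. Hba-a1, which did not pass the filter, differed by -1.95 and -0.77. The part of these cells in the granule gene differences was not tested.

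In the marrow-like pair all 10 genes were lower on KA/KA 1 than on WT 1 as deposited (8 of 10 after quantile normalisation, given below), where 43.2% of all genes were. The differences were small beside those between the sets. They were largest for Elane (-0.98), Ctsg (-0.90), Camp (-0.75), Mmp8 (-0.74), Ngp (-0.72) and Prtn3 (-0.69), followed by Ltf (-0.54), Mmp9 (-0.31), Mpo (-0.23) and Cd177 (-0.12). By over 0.5 log2 unit 7 of 10 were lower, where 12.7% of genes were. With 1 array of each genotype there is no replicate check, and this is again a contrast the list was drawn up on. Granule genes were bright on this pair, although its label is cells enriched for B220. Among all probe sets but controls, Ngp lay at percentile 99.93 on KA/KA 1 and 99.94 on WT 1. Mmp8 lay at percentile 89.2 on KA/KA 1 and 93.7 on WT 1. The medians were -0.63 for later and -0.80 for primary genes, with 0.08 over all genes, so the stages lay close together here as deposited. After quantile normalisation they lay farther apart, at -0.08 for later and -0.69 for primary genes.

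The brightest members of the pair depended on the scaling. The 99th percentile of signal was 9629 on KA/KA 1 and 12361 on WT 1, although both arrays share a trimmed mean. After quantile normalisation, which equalises such tails, the later median was -0.08 and the primary median -0.69. Camp then stood at -0.10, Ltf at -0.06, Ngp at -0.04, Cd177 at 0.01 and Mpo at 0.13. Elane (-0.91), Ctsg (-0.84), Mmp8 (-0.74) and Prtn3 (-0.53) were lower under both scalings by over 0.5. All 4 neutrophil markers were lower on KA/KA 1, with summed signals of 53779 on KA/KA 1 and 78946 on WT 1. Eosinophil markers summed to 6784 on KA/KA 1 and 1452 on WT 1, and monocyte and macrophage markers to 31537 on KA/KA 1 and 23721 on WT 1. The part of neutrophils and these other cells in the granule gene differences of the pair was not tested.

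**Figure D3:**
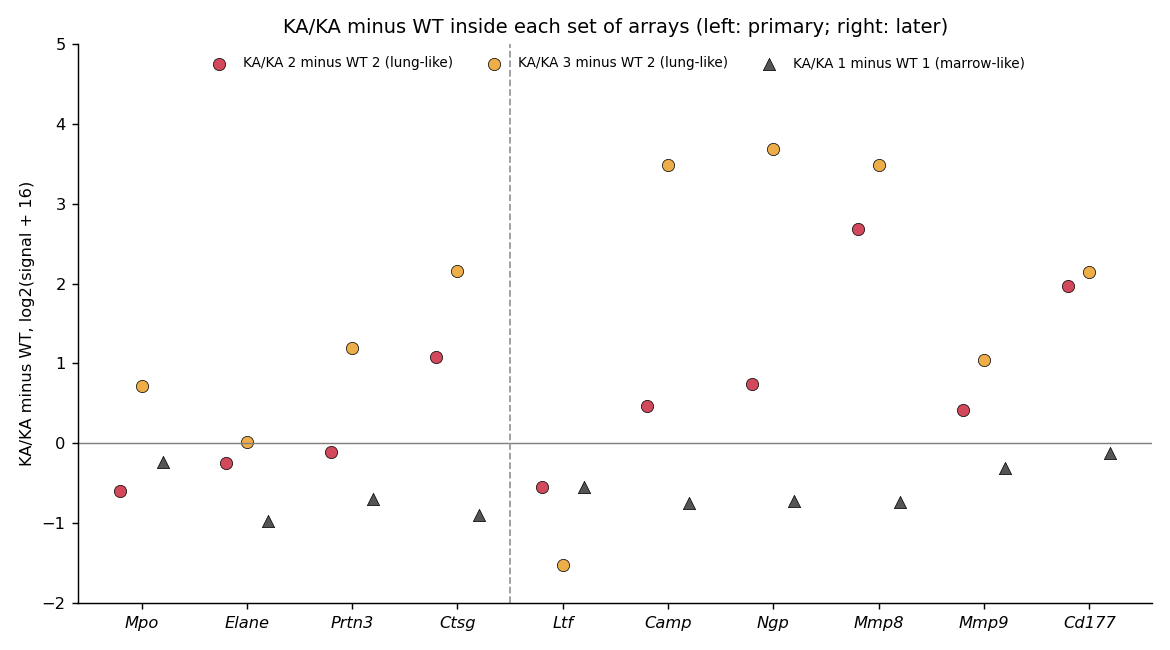
KA/KA minus WT in log2(signal + 16) for each gene, as circles for the lung-like arrays (KA/KA 2 and KA/KA 3, each minus WT 2) and triangles for the marrow-like pair (KA/KA 1 minus WT 1). As deposited, all triangles lie between -0.98 and -0.12 (Mpo and Cd177 read 0.13 and 0.01 after quantile normalisation), while circles range from -1.53 (Ltf) to 3.69 (Ngp).

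Over all 5 arrays, as the labels group them, no member passed the test between KA/KA and WT. limma called 0 of 10 members and 0 of 11392 genes (0%) at an adjusted p under 0.05, with 25 genes and 0 members at an unadjusted p under 0.05. The estimates (KA/KA minus WT, ± SE, n = 3 and 2) ran from -1.59 ± 2.97 for Elane to 1.09 ± 1.33 for Mmp8, each with a limma adjusted p of 0.9999. Each genotype spans both sets, but in unequal shares, since KA/KA 2 and KA/KA 3 are lung-like against WT 2 alone. The difference between the sets thus enters these estimates and their errors. Mpo went from -1.10 to -0.07 and Ngp from -0.15 to 0.96 once the set was a block. With the set as a block the estimates ran from -0.83 ± 0.37 for Ltf to 1.45 ± 0.84 for Mmp8, and limma again called 0 members and 0 genes (0%), with an adjusted p of 0.9989 and 311 genes at an unadjusted p under 0.05. An exact permutation test of 3 arrays against 2 cannot go below 0.1 and was not run.

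Other genes of the granulocyte series lay on both sides of zero in the difference between the sets. None of the 39 genes in the 4 lists below was called by limma between KA/KA and WT. Of 7 other primary granule and promyelocyte genes tested, 4 were lower by over 1 log2 unit on the lung-like arrays and 1 was higher, with a median of -1.44. Ms4a3, a membrane protein of granulocyte and monocyte progenitors, differed by -4.91, and Fcnb, a ficolin, by -4.60. At the other end were Hdc, the enzyme that makes histamine (1.52), and the chaperone calreticulin, Calr (0.50). Ms4a3 read 6.85 on KA/KA 2, 7.00 on KA/KA 3 and 6.68 on WT 2, against 11.10 on KA/KA 1 and 12.42 on WT 1. It was thus flat across the lung-like arrays, much as Elane was.

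Of 9 other secondary granule genes, 5 were lower by over 1 and 0 higher, with a median of -1.16. Olfm4, a protein found in a subset of neutrophils, differed by -5.35, and the peptidoglycan-binding protein Pglyrp1 by -2.88. The haptoglobin gene Hp (0.85) and the lysozyme gene Lyz2 (0.25) were the highest. Inside the lung-like set all 9 were higher on both KA/KA arrays than on WT 2, where 33.4% of all genes were. The medians were 1.60 and 1.51 for KA/KA 2 and KA/KA 3. Ltf, the member with the opposite order, was unlike all of them in this. All 8 monocyte and macrophage markers tested were also higher on both KA/KA arrays than on WT 2. The part of such cells in the values of these 9 genes was not tested. In the marrow-like pair 8 of 9 were lower on KA/KA 1, where 43.2% of all genes were, with a median of -0.68. Inside the lung-like set the 99th percentile of signal was 8639 on WT 2, against 11408 on KA/KA 2 and 10908 on KA/KA 3. For the members, the mean of KA/KA 2 and KA/KA 3 minus WT 2 was also taken after quantile normalisation. Its median was then 2.06 for later and 0.32 for primary genes, against 2.02 and 0.30 as deposited. Such values are not given here for the 9 genes of this list.

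Of 14 tertiary granule and mature neutrophil genes, 6 were lower by over 1 and 4 higher, with a median of -0.43. Padi4, the enzyme that citrullinates histones in neutrophil extracellular traps, differed by -3.02 and properdin, Cfp, by -2.47. The arginase gene Arg2 (2.80) and Il1b, interleukin 1β (1.72), were higher on the lung-like arrays. Of these 14 genes, 12 were higher on KA/KA 2 and 14 on KA/KA 3 than on WT 2, with medians of 1.27 and 2.23. Of all 11392 genes, 5351 and 5595 were higher. The part of monocytes and macrophages in the values of these 14 genes was not tested either. In the marrow-like pair 12 of 14 were lower on KA/KA 1, where 43.2% of all genes were, with a median of -0.48.

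Of 9 granulocyte transcription factors, 5 were lower by over 1 and 4 higher, with a median of -1.09. Myb, which is needed in progenitors, differed by -4.65, and Gfi1, a repressor needed for neutrophil maturation, by -3.03. Klf4 (3.52) and Cebpa (2.30) were higher on the lung-like arrays. Both are also expressed outside blood cells. Myb read 7.93 on KA/KA 2, 9.32 on KA/KA 3 and 9.18 on WT 2, against 13.31 on KA/KA 1 and 13.61 on WT 1. The 7 B-lineage markers tested were lower on the lung-like arrays too, with a median of -6.86. The part of B-lineage cells in the Myb signal was not tested. In the marrow-like pair the median over the factors was 0.09, close to that of all genes. Over all genes tested, 1621 were lower by over 1 on the lung-like arrays and 2726 higher.

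**Figure D4:**
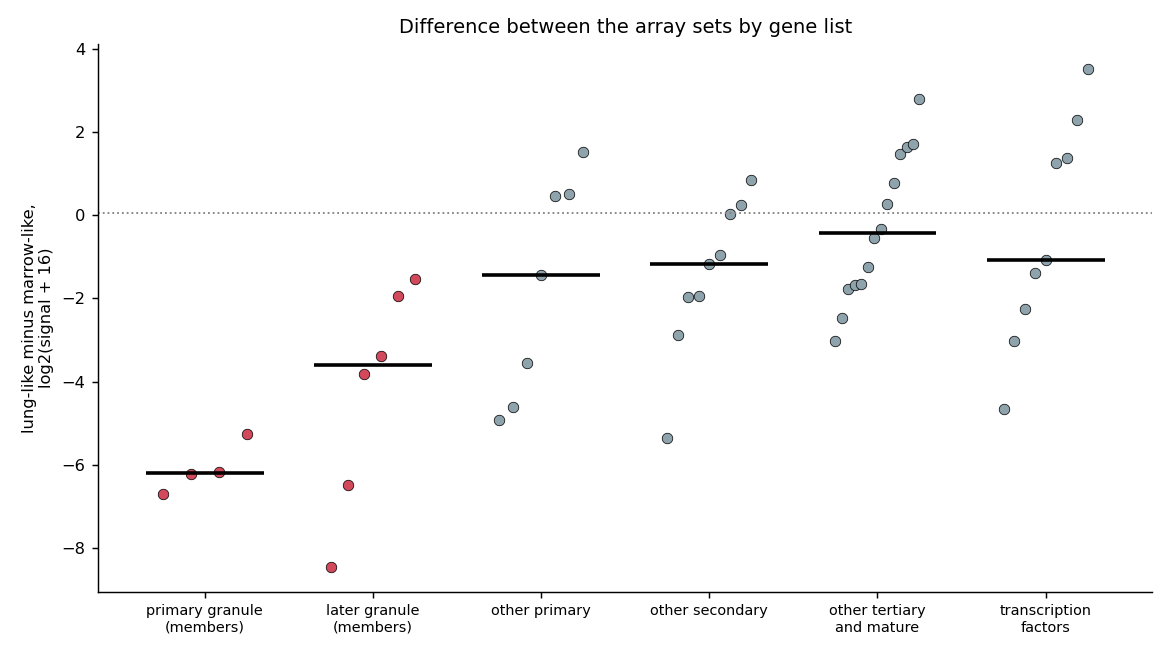
Lung-like minus marrow-like difference in log2(signal + 16) for each tested gene of the 6 lists, with list members in order of value. Black lines are medians and the dotted line is the median of all 11392 genes (0.05). The medians are -6.19 and -3.61 for the primary and later members and lie between -1.44 and -0.43 for the other lists.

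Profiles across the 5 arrays were also compared with those of all other genes, after centring each gene on its own mean. The likeness is the root mean square difference in log2 units over the 5 arrays. Nearest to the mean primary profile were Fcrla (0.22), Car1 (0.33) and Niban3 (0.55), while the 4 primary genes themselves lay 0.26 to 0.45 from it. Nearest to the mean later profile were Ndc80 (0.21), Ncapg (0.26) and Clec2d (0.27). The later genes lay 0.57 (Cd177) to 2.14 (Camp) from their own mean. The primary genes thus lay closer to their shared mean than any of the later genes did to theirs. Such a profile was not theirs alone. Fcrla lay nearer to the primary mean than any primary gene did. The 7 B-lineage markers tested had a median difference of -6.86 between the sets, against -6.19 for the primary genes.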

How the data were processed

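The deposited table gives the intensity of 45101 probe sets on 5 Affymetrix arrays, labelled from 150 ng of total RNA each, per the labels' protocols. Per the submitters' processing notes the authors used MAS5; its version is not given in the sources used here. The series text speaks of a log2 transformation, but the deposited intensity values are linear, and every array has the same mean of 500 once the outer 2% at either end is dropped. log2(signal + 16) was computed from them. Depth has no counterpart here, and the number of arrays limits the precision. Detection calls were not used here.

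The 64 control probe sets were left out. A probe set was kept when its mean log2 signal reached the median over probe sets (22519 were), and each of 11392 genes with 1 symbol was represented by its brightest. All 10 members passed, and 3 of them (Elane, Ctsg and Camp) only through their signals on the marrow-like arrays. limma 3.58.1 in R 4.3.3 fitted KA/KA against WT (lmFit, eBayes with an intensity trend, two-sided, Benjamini-Hochberg over all genes, threshold 0.05), and the fit was tested on simulated data. Groups follow the labels. The array sets came with the definition of the list, and differences between and inside them are descriptions. Named genes were all members and, of each other list, the 2 highest and 2 lowest in the difference between the sets. Further genes were the 3 nearest to the mean profile of each stage, and cell type markers. List genes with no probe set of 1 symbol were not analysed here. The members and lists were chosen with earlier results of these data known. Alternatives were other constants, scalings, filters, probe set rules, blocks, eBayes without trend, and leaving out each array.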

Additional observations from a re-analysis of the deposited data

Results flagged for a closer look

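For 6 of the 10 genes, KA/KA was lower than WT in the marrow-like pair and higher than WT on both lung-like KA/KA arrays, as deposited. The difference of KA/KA minus WT (mean of the lung-like arrays less the marrow-like pair) was 3.83 log2 units for Mmp8, 2.94 for Ngp, 2.72 for Camp, 2.53 for Ctsg, 2.18 for Cd177 and 1.03 for Mmp9. These differences between the sets were not tested. Without KA/KA 3 the values for Ngp and Camp were 1.46 and 1.22, and without KA/KA 2 they were 4.41 and 4.23. The lung-like side of Ctsg, 1.62, was 0.67 with a floor at the 20th percentile and 3.00 with a constant of 1. For Cd177 the marrow-like side was -0.12, and 0.01 after quantile normalisation, so its opposite sign depends on the scaling. The lung-like differences of all 6 genes share the WT 2 array, on which neutrophil, macrophage and eosinophil markers were also lowest of the 3.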

How the results depend on the processing

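limma called 0 genes under every alternative except the replicate block, which called 1 gene that is no member, Xist (KA/KA minus WT 6.13, limma adjusted p = 0.0114), named after its value was seen. Xist makes the RNA that silences an X chromosome in female cells. The sex of the mice is not stated here, and its part in the KA/KA minus WT values was not tested. The labels give no basis for pairing by number. Deviations from the group means correlated at 0.88 for number 1 and 0.65 for number 2 over all genes, but KA/KA 3 followed WT 2 more closely (0.79). Leaving out each array gave 0 to 0 calls. Of the difference between the sets, the primary median was -5.23 and the gap between stages 1.73 with a constant of 64. Without 1 array at a time the primary median ran from -6.63 to -5.91, the later from -3.79 to -3.44 and the gap from 2.24 to 3.04. On the lung-like arrays the KA/KA minus WT median ran from 0.61 (without KA/KA 3) to 2.81 (without KA/KA 2) for later genes and from -0.18 to 0.95 for primary genes. The marrow-like medians, -0.63 and -0.80 for later and primary genes, did not involve those arrays. After quantile normalisation these medians were -0.08 and -0.69. Median centring shifted the median of all genes by -0.35 between the sets and moved every gene equally. Of single-gene values, 104 of 110 between the sets and 187 of 190 inside them moved by no more than the spread between arrays. These counts do not measure stability. Many inside-set values come from leaving out an array outside the contrast and could not move. The probe set rule could change only Mmp9. The spread itself also holds the KA/KA minus WT differences. Camp on the lung-like arrays thus counted as unmoved at 0.47 without KA/KA 3, against 1.98 as deposited. Inside the sets, 6 small values changed sign. These were Mpo and Cd177 in the pair after quantile normalisation, Elane on the lung-like arrays with a floor at the 20th percentile or without KA/KA 2, and Mpo and Prtn3 there without KA/KA 3. Signals near zero limit how precisely the differences of Elane, Ctsg and Camp are known. They were near zero on all 3 lung-like arrays for Elane, and on KA/KA 2 and WT 2 for Ctsg and Camp. On KA/KA 3 the signal was 78.2 for Ctsg and 256 for Camp.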
